A study of Mus musculus with 10 samples.

Results

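Acute phase plasma proteins were examined as a group of 10 listed genes: Saa1, Saa3, Saa4, Orm1, Orm2, Hp, Hpx, Crp, Lbp and Lcn2. A gene was read from a transcript cluster (the set of array probes that reports 1 transcript locus) only where the platform annotation gives that cluster exactly 1 gene symbol, and 9 of the 10 could be read in this way, out of 22180 genes in all. Saa1 could not, because its only cluster is annotated to Saa1 and Saa2 together. That shared cluster is described beside the family and counted nowhere among the members. Levels are log2 values as the authors made them, so a difference of 1 is a doubling, and levels of different genes are not set against each other because probes differ in brightness.

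The 10 arrays came from 3 kinds of mouse cells. The group Ad_Hep holds 3 arrays of adult hepatocytes with liver as their source, ES_HLC holds 3 arrays of hepatocyte-like cells made by differentiating embryonic stem cells, and mESC holds 4 arrays of undifferentiated embryonic stem cells, called stem cells from here on. For all 10 the strain is labelled with the transgene Tg(CAG-luc, GFP)L2G85Chco, in which the CAG promoter drives luciferase and green fluorescent protein, on C.FVB with the laboratory code FathJ, so the transgene does not differ between groups. No treatment or inflammatory stimulus is named in the labels. The labels give the adult hepatocytes the same passage limit as the other kinds, so they are not taken here as uncultured. Not given in the sources used here are the age of the animals, the differentiation procedure and its length, the number of stem cell lines and any pooling. The labels call the replicates biological without saying whether they came from separate cultures or animals, so p-values rest on a spread that may be technical, and the small number of arrays limits the precision.

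The acute phase response is the change in the blood proteins that hepatocytes secrete during infection or injury. Interleukin-6 and related cytokines act through gp130 and STAT3, and interleukin-1 and tumour necrosis factor act through NF-kB. C/EBP factors and hepatocyte factors at the promoters of these genes set how strongly the liver answers. Several of the proteins also circulate at rest, and some, such as Saa3 and Lcn2, are known from cells outside the liver as well.

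Hepatocyte-like cells were first set against hepatocyte markers, because the labelled identity bears on every comparison. Of 16 hepatocyte markers 4 rose from stem cells to hepatocyte-like cells and 9 had a mean below 5.5, the level taken here as dim. Markers of other cells moved as well: 6 of 7 fetal liver and hepatoblast markers (median 3.75), 9 of 14 stellate cell and fibroblast markers (median 2.96) and 3 of 5 cholangiocyte markers (median 1.79) rose, and 11 of 12 naive pluripotency markers fell (median -5.27). Over all genes, 8.61 percent rose and 7.35 percent fell in this comparison by the same rule, given below. The mean level of the stellate cell and fibroblast list was 8.76, 7.89 and 7.12 in hepatocyte-like replicates 1, 2 and 3, against 4.90 to 5.08 in stem cells and 6.01 to 6.05 in adult hepatocytes. The part of such cells in the differences of hepatocyte-like cells given below was not tested. In adult hepatocytes against stem cells 8 of 11 endothelial markers rose and 2 fell (median 2.46), where 11 and 15.6 percent of all genes did. The mean level of that list was 7.20 to 7.31 in adult hepatocytes, 5.19 to 5.70 in hepatocyte-like cells and 5.31 to 5.51 in stem cells. The part of endothelial cells in the differences of adult hepatocytes was not tested. Asgr1, a subunit of the hepatocyte receptor for desialylated glycoproteins, read 4.40, 4.53 and 4.58 in hepatocyte-like cells, 4.28 to 4.73 in stem cells and 9.92 to 10.03 in adult hepatocytes. Hepatocyte-like replicate 3 stood apart. Albumin, Alb, was at 10.80 there against 4.85 and 5.14 in replicates 1 and 2, while the fetal liver transcript Afp was lower there, at 6.69 against 9.13 and 9.30, and the pluripotency factor Nanog higher, at 7.12 against 5.08 and 5.09. Member differences from stem cells are therefore given with and without replicate 3. In RNA from whole samples, fewer cells of a type and less RNA per cell cannot be told apart.

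Adult hepatocytes carried nearly the whole group at high levels, and hepatocyte-like cells carried little of it. In adult hepatocytes against stem cells 8 of the 9 measured members rose, where 11 percent of all genes were called higher. Of the 9, 0 fell (15.6 percent of all genes were called lower). At an unadjusted p under 0.05 in limma 0 were lower, a threshold at which the share of all genes was not counted. A call needed an adjusted p under 0.05 in limma and a log2 difference of at least 1. All 3 adult arrays lay above all 4 stem cell arrays for 8 members (22.4 percent of all genes) and below them for 0 (24.5 percent). The members' median difference was 6.94, against 0.05 over all genes. In hepatocyte-like cells against stem cells 1 member rose, Lbp, and 1 fell, Saa3, where 8.61 percent of all genes were called higher and 7.35 percent lower, so these shares are close to the background at this number of genes. The median difference was 0.25, against -0.01 over all genes, and was 0.34, 0.50 and 0.12 without hepatocyte-like replicates 1, 2 and 3 in turn. From adult hepatocytes to hepatocyte-like cells all 9 fell, where 9.12 percent of all genes were called lower and 13.9 percent higher, with a median of -6.74 against -0.04. The hepatocyte-like arrays lay below all adult arrays for 9 members (20.9 percent of all genes) and above them for 0 (24.3 percent). The 3 comparisons share their groups, so they are not independent of each other. The plot of levels by array shows every value.

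**Figure D1:**
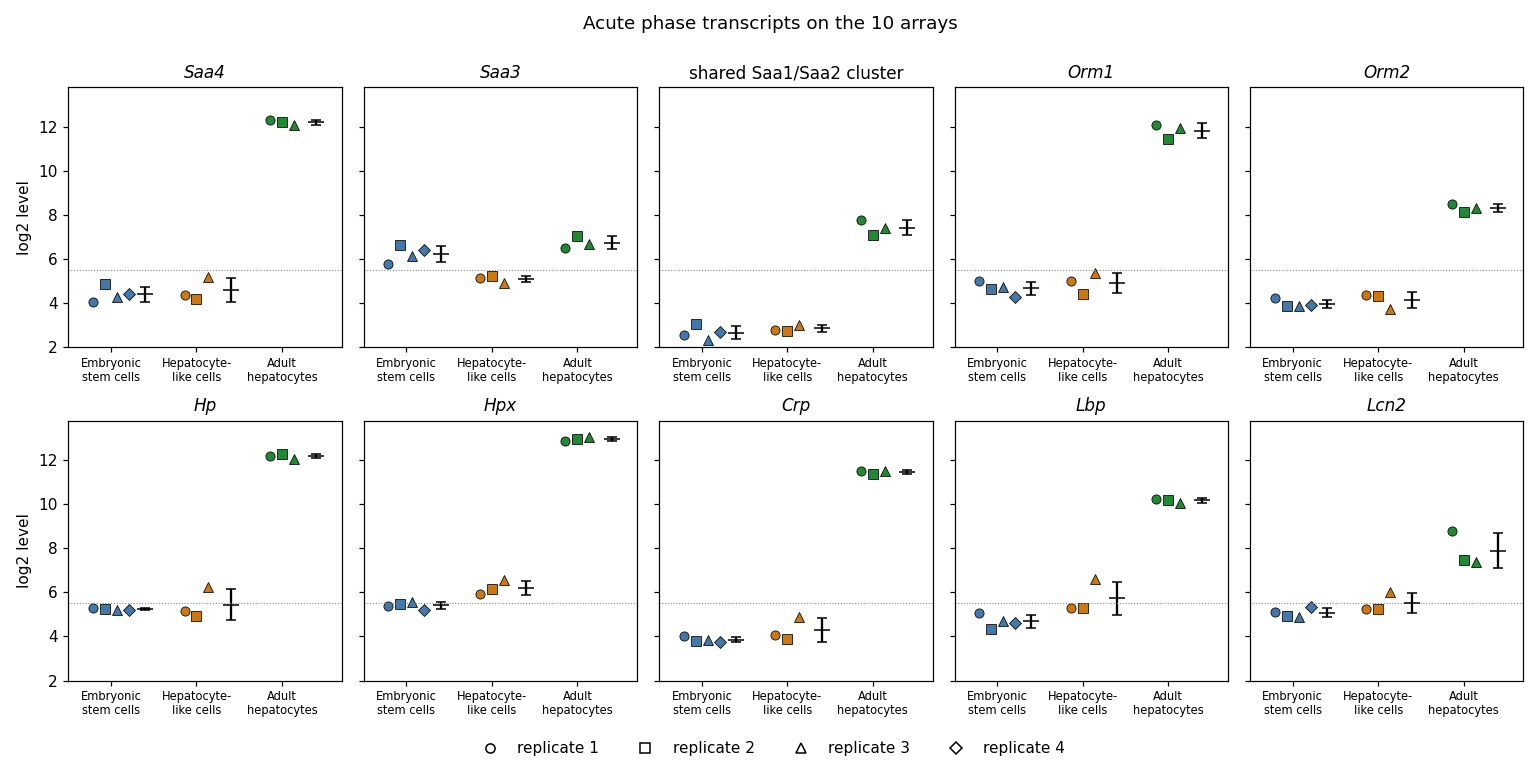
Log2 level (vertical axis) of the 9 measured members and of the cluster shared by Saa1 and Saa2 on the 10 arrays, by kind of cell (horizontal axis); symbols mark replicates, the black bar the mean with its SD, and the dotted line 5.5, the level taken as dim. Adult hepatocytes lie above both other kinds in every panel except that of Saa3, where replicate 1 at 6.49 falls between the stem cell arrays, which span 5.77 to 6.62; heights are not comparable between panels.

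Serum amyloid A proteins are small apolipoproteins of high density lipoprotein. Saa1 and Saa2 are the strongly induced liver forms, Saa3 is made by macrophages, fat cells and epithelia as well as liver, and Saa4 is the form that circulates at rest. In the RefSeq gene order of GRCm38.p6, Saa3, Saa4, Saa1 and Saa2 follow each other on chromosome 7 with no other coding gene between them. The 250 bases upstream of the start that RefSeq gives each gene are shown for Saa3, Saa4 and Saa1, since these neighbours belong to 1 family and Saa3 and Saa4 had different orders of levels over the 3 kinds of cells, and for Orm2 and Crp as members with the same order of levels as Saa4. Capitals mark matches to the C/EBP motif TTGCNNAA on either strand and, on the gene's strand, to the TATA motif TATAAA. The Saa3 window (chr7:46715677-46715926, minus strand) lies inside a longer RefSeq gene model of Saa3. Part of the Saa1 window also lies inside the RefSeq gene model of Saa1, which ends at chr7:46743181. The windows of Saa4 (chr7:46732604-46732853) and Saa1 (chr7:46742981-46743230) are also on the minus strand, and those of Orm2 (chr4:63362199-63362448) and Crp (chr1:172697806-172698055) on the plus strand, all in GRCm38.p6.
Saa3: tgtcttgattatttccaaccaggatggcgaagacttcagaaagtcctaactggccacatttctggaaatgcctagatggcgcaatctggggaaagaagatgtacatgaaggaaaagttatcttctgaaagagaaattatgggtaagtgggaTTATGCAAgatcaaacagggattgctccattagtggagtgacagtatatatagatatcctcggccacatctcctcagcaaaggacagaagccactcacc
Saa4: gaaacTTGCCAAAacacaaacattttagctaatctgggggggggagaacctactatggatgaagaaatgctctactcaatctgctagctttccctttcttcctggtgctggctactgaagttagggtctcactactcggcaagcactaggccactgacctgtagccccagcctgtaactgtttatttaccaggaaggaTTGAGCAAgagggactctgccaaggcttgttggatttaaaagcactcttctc
Saa1: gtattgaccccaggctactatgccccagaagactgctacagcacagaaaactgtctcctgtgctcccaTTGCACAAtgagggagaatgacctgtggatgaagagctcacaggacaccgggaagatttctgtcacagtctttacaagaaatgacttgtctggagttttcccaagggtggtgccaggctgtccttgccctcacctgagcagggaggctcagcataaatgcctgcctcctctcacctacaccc
Orm2: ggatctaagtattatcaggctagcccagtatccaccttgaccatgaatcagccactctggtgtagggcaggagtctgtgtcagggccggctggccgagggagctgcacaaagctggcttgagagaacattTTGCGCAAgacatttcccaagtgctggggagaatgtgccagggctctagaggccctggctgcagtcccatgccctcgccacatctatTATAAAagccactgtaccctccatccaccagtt
Crp: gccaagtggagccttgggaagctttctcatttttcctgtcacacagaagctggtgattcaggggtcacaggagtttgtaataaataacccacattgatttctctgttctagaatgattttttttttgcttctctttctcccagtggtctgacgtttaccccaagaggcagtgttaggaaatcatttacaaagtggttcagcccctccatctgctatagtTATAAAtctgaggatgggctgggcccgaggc

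RefSeq's promoter table held 7 of the 10 genes, without Orm1, Hp and Lbp. A C/EBP match stood in 6 of those 7 windows, in Saa1, Saa3, Saa4, Orm2, Hpx and Lcn2, against 9.56 percent of all 32851 windows of this length. Crp had none and carried TATAAA, as did Orm2, which 7.59 percent of windows hold. The Orm2 match began 120 bases upstream of the start, that of Saa3 99 bases, that of Saa1 182, and Saa4 had matches at 245 and 52. The STAT motif TTCNNNGAA (7.02 percent of windows, both strands), the NF-kB motif (7.25 percent, both strands) and an HNF1 motif (0.371 percent, both strands) were in 0 of the 7. None of the matches overlapped another. A match describes letters only, and the absence of one says nothing of a factor. The windows of Saa1 and Saa2, aligned end to end with gaps allowed, were identical at 95.2 percent of the 250 bases, those of Saa3 and Saa4 at 51.6 percent.

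Saa4 separated adult hepatocytes from the rest. It read 12.32, 12.20 and 12.11 in adult hepatocytes, 4.36, 4.18 and 5.21 in hepatocyte-like cells and 4.06, 4.88, 4.26 and 4.42 in stem cells. Adult hepatocytes lay far above both other kinds, and hepatocyte-like cells overlapped the stem cells except for replicate 3. The difference of adult hepatocytes from stem cells was 7.81 ± 0.25 (SE), or 224-fold (adjusted p = 6.04e-11). Folds against levels below 5.5 are uncertain here, because no background was measured for these arrays. Hepatocyte-like cells stood 0.18 ± 0.25 from stem cells (adjusted p = 0.681, 95 percent interval -0.37 to 0.73), and without replicate 3 the difference was -0.13.

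Saa3 had another order of levels. It read 5.77, 6.62, 6.12 and 6.42 in stem cells, 6.49, 7.06 and 6.67 in adult hepatocytes and 5.13, 5.22 and 4.94 in hepatocyte-like cells. All 3 hepatocyte-like arrays lay below the other 7, while adult hepatocytes overlapped the stem cells. Saa3 fell by 1.14 ± 0.21 in hepatocyte-like against stem cells, 2.20-fold (adjusted p = 0.00135), and by 1.65 ± 0.23 against adult hepatocytes, 3.13-fold (adjusted p = 8.44e-05). Adult hepatocytes and stem cells, neighbours in the order, differed by 0.51 ± 0.21 (adjusted p = 0.0790, 95 percent interval 0.04 to 0.97), which did not pass. Without hepatocyte-like replicate 3 the difference from stem cells was -1.06 (adjusted p = 0.00645). Macrophages are another known source of Saa3. Of 14 Kupffer cell and macrophage markers 10 were called higher and 1 lower in adult hepatocytes against stem cells (11 and 15.6 percent of all genes). In hepatocyte-like against stem cells 1 was called higher and 1 lower (8.61 and 7.35 percent of all genes). The higher one was Csf1r, by 1.01 (adjusted p = 0.0221 in limma), or 0.77 without replicate 3. The mean level of that list was 6.07 to 6.31 in adult hepatocytes, 4.70 to 4.80 in hepatocyte-like cells and 4.68 to 4.84 in stem cells. Among its markers, Adgre1 and Clec4f were dim on all hepatocyte-like and stem cell arrays, at 3.53 to 5.02, and read 5.19 to 7.35 in adult hepatocytes. The part of these cells in the level of Saa3 in adult hepatocytes was not tested.

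The cluster that the annotation gives to Saa1 and Saa2 together cannot be assigned to either gene. It read 7.79, 7.10 and 7.42 in adult hepatocytes, 2.78, 2.76 and 3.03 in hepatocyte-like cells and 2.32 to 3.06 in stem cells. Hepatocyte-like and stem cells overlapped, with a difference of 0.19 ± 0.21 (adjusted p = 0.629 in limma over all clusters). Adult hepatocytes stood 4.77 ± 0.21 above stem cells, 27.3-fold (adjusted p = 1.32e-08). A second cluster is annotated to Saa2 alone and gave 7.32, 6.24 and 6.92 in adult hepatocytes against 2.81 to 3.51 and 3.25 to 4.21 in the other kinds. The 2 genes are near-identical copies, so probes for one may read the other.

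Orm1 and Orm2 encode alpha-1-acid glycoproteins, plasma carriers of basic drugs and modulators of immune cells. Orm1 lay between 11.44 and 12.07 in adult hepatocytes, between 4.43 and 5.35 in hepatocyte-like cells and between 4.28 and 4.99 in stem cells. Hepatocyte-like and stem cells overlapped at dim levels. Orm1 rose by 7.15 ± 0.25 in adult hepatocytes over stem cells, 142.5-fold (adjusted p = 1.08e-10). Orm2 lay between 8.12 and 8.49 in adult hepatocytes, between 3.75 and 4.38 in hepatocyte-like cells and between 3.87 and 4.22 in stem cells, and rose by 4.35 ± 0.19, 20.3-fold (adjusted p = 9.24e-10). Their neighbour Orm3, which lies between them on chromosome 4, read 8.30, 8.36 and 8.36 in adult hepatocytes against 3.27 to 4.38 and 3.64 to 4.06 in hepatocyte-like and stem cells. The 3 genes are close copies, so their levels may not be fully separate. Their upstream windows were alike as well, with 87.2 percent identity between Orm2 and Orm3. In hepatocyte-like cells neither passed the test against stem cells. The difference of Orm1 was 0.25 ± 0.25 (adjusted p = 0.530, interval -0.28 to 0.79) and 0.04 without replicate 3. That of Orm2 was 0.18 ± 0.19 (adjusted p = 0.557, interval -0.23 to 0.59) and 0.38 without replicate 3.

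Haptoglobin and hemopexin clear what red cells release: haptoglobin, Hp, binds free haemoglobin, and hemopexin, Hpx, binds haem. Hp read 12.19, 12.26 and 12.07 in adult hepatocytes, 5.16, 4.91 and 6.25 in hepatocyte-like cells and 5.31, 5.23, 5.21 and 5.20 in stem cells. Hepatocyte-like replicates 1 and 2 lay just below the 4 stem cell arrays and replicate 3 about 1 log2 unit above their mean (1.01). Hp rose by 6.94 ± 0.26 in adult hepatocytes over stem cells, 122.6-fold (adjusted p = 2.05e-10). Its difference in hepatocyte-like cells, 0.20 ± 0.26 (adjusted p = 0.644, interval -0.35 to 0.76), was -0.20 without replicate 3.

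Hpx was the member whose hepatocyte-like arrays all lay above the stem cells beside Lbp. It read 5.95, 6.14 and 6.57 in hepatocyte-like cells, 5.40, 5.49, 5.54 and 5.22 in stem cells and 12.89, 12.94 and 13.05 in adult hepatocytes. The 3 kinds did not overlap. The step from stem cells to hepatocyte-like cells was 0.80 ± 0.17, or 1.75-fold (adjusted p = 0.00318, interval 0.43 to 1.18), which passed the p-value threshold but not the minimum difference of 1. It was 0.63 without replicate 3 (adjusted p = 0.0133). Only 2 of 9 members, Hpx and Lbp, had all hepatocyte-like arrays above all stem cell arrays, where 17.2 percent of all genes did, and 1, Saa3, had all below, where 17.5 percent did.

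The receptors of these complexes were read from the fixed list of partners. Lrp1, the receptor that takes up haem bound to hemopexin, rose by 2.0 ± 0.25 in hepatocyte-like cells over stem cells (adjusted p = 7.02e-05) and by 2.93 ± 0.25 in adult hepatocytes (adjusted p = 8.14e-07). Cd163, the macrophage receptor for haptoglobin with haemoglobin, was dim everywhere, at 3.64 to 5.23. Hmox1, the enzyme that breaks down haem, read 7.36, 7.09 and 7.24 in adult hepatocytes, 8.34 to 9.51 in hepatocyte-like cells and 8.83 to 9.27 in stem cells. It fell by 1.83 ± 0.24 in adult hepatocytes against stem cells (adjusted p = 3.74e-05), against the direction of Hp and Hpx.

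C-reactive protein, Crp, is a pentraxin that binds phosphocholine on microbes and dying cells, and in the mouse it is a minor acute phase protein. Its level was 11.52, 11.37 and 11.51 in adult hepatocytes, 4.07, 3.89 and 4.90 in hepatocyte-like cells and 4.00, 3.81, 3.86 and 3.77 in stem cells. The adult arrays were tight and far above the rest, and among hepatocyte-like cells replicate 3 was again the highest. Crp rose by 7.61 ± 0.21 in adult hepatocytes over stem cells, 195.0-fold (adjusted p = 2.09e-11). In hepatocyte-like cells the difference was 0.43 ± 0.21 (adjusted p = 0.175, interval -0.04 to 0.89) and 0.12 without replicate 3. Apcs, the serum amyloid P pentraxin whose gene is the next coding gene to Crp on chromosome 1, read 10.24, 9.62 and 9.72 in adult hepatocytes against 3.29 to 3.72 and 2.62 to 3.52 in the other kinds.

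Lipopolysaccharide binding protein, Lbp, hands bacterial endotoxin to CD14 and the Toll-like receptor 4 complex. It read 10.26, 10.21 and 10.06 in adult hepatocytes, 5.28, 5.30 and 6.61 in hepatocyte-like cells and 5.06, 4.35, 4.72 and 4.62 in stem cells. The 3 kinds did not overlap, and hepatocyte-like replicates 1 and 2 lay close above the highest stem cell array. Lbp rose by 5.49 ± 0.29 in adult hepatocytes over stem cells, 45.0-fold (adjusted p = 6.63e-09). It rose by 1.05 ± 0.29, 2.06-fold, in hepatocyte-like cells (adjusted p = 0.0157), but without replicate 3 the difference was 0.61 (adjusted p = 0.0399) and without stem cell replicate 2 it was 0.93 (adjusted p = 0.0465), both short of the minimum difference. It was also short of it with arrays quantile normalized again (0.88), centred on their medians (0.97) or weighted (0.89), and its adjusted p ranged from 0.00872 to 0.0465 over the alternatives.

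The gene beside Lbp, Bpi, encodes a neutrophil relative that kills Gram-negative bacteria, and its level was 4.01 to 4.41 on all 10 arrays. Of the proteins that receive endotoxin from Lbp, Tlr4 read 3.71 to 4.63 over the 10 arrays. Cd14 read 5.02 to 5.24 in adult hepatocytes, 4.36 to 4.75 in stem cells and 4.91, 6.16 and 4.48 in hepatocyte-like cells. Ly96, the endotoxin-binding partner of Toll-like receptor 4, rose by 1.39 ± 0.34 in adult hepatocytes over stem cells (adjusted p = 0.00493). Its arrays read 8.49, 7.30 and 7.34, and without adult replicate 1 the difference was 0.998 (adjusted p = 0.0269), just short of the minimum.

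Lipocalin 2, Lcn2, holds iron-loaded bacterial siderophores and is made by neutrophils, epithelia and the inflamed liver. It read 8.80, 7.45 and 7.40 in adult hepatocytes, 5.27, 5.26 and 6.02 in hepatocyte-like cells and 5.11, 4.93, 4.90 and 5.36 in stem cells. Adult replicate 1 lay well above replicates 2 and 3, and all 3 lay above both other kinds. Lcn2 rose by 2.81 ± 0.32 in adult hepatocytes over stem cells, 7.02-fold (adjusted p = 8.75e-06), and by 2.35 without adult replicate 1. Of the 8 members that rose, it rose least. Hepatocyte-like cells stood 0.45 ± 0.32 from stem cells (adjusted p = 0.360, interval -0.24 to 1.13) and 0.19 without replicate 3.

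Neutrophils are another known source of Lcn2, and 0 of 13 neutrophil markers were called in any of the 3 comparisons by limma. In adult hepatocytes against stem cells 11 percent of all genes were called higher and 15.6 percent lower. At an unadjusted p under 0.05, 4 of the 13 were higher in adult hepatocytes than in either other kind, comparison by comparison. The share of all genes at that threshold was not counted, so nothing is read from these 4. Their mean level was 4.40, 4.64 and 4.59 on the adult arrays, 4.18 to 4.41 in hepatocyte-like cells and 4.26 to 4.34 in stem cells. Group means of 12 of the 13 lay below 5.5 in adult hepatocytes, S100a8 and S100a9 among them at 3.09 to 5.02 by array. The part of neutrophils in the level of Lcn2 was not tested. Of the receptors named for Lcn2, Slc22a17 stood 0.92 ± 0.18 above stem cells in hepatocyte-like cells (adjusted p = 0.00169), short of the minimum difference. The endocytic receptor Lrp2 read 5.99, 6.41 and 9.36 in hepatocyte-like cells against 4.48 to 4.86 in adult hepatocytes, a rise of 2.60 ± 0.65 (adjusted p = 0.00639) that was 1.55 without replicate 3.

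**Figure D2:**
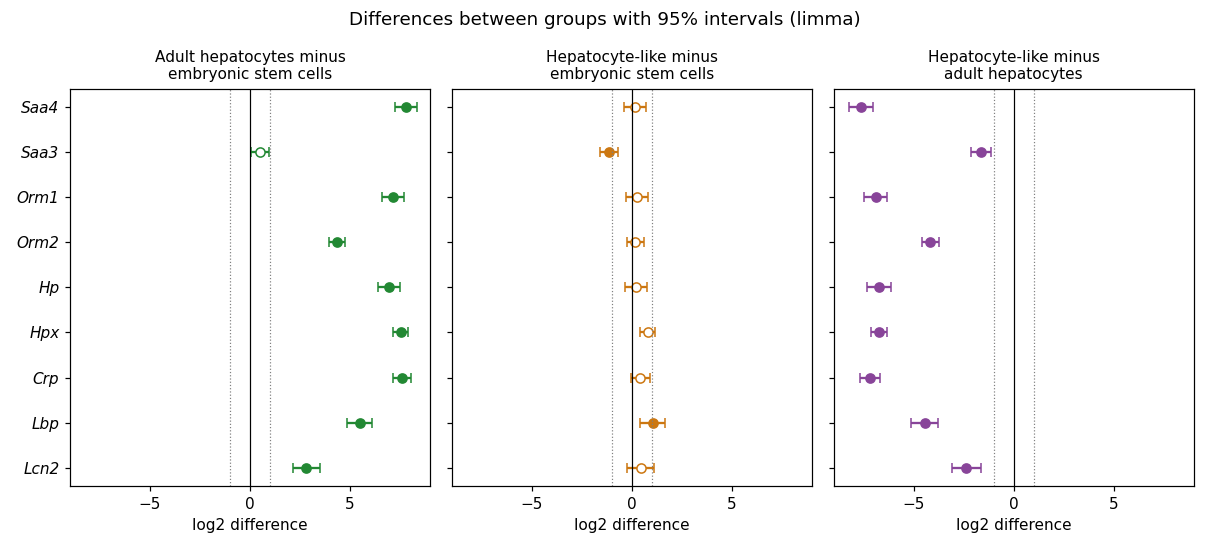
Log2 difference between groups (horizontal axis) for the 9 measured members (vertical axis) with 95 percent intervals from limma; filled points passed an adjusted p under 0.05 and a difference of at least 1 (dotted lines), open points did not. In adult hepatocytes against stem cells 8 points are filled, all but Saa3 at 0.51, in hepatocyte-like against stem cells only Saa3 at -1.14 and Lbp at 1.05, and all 9 are in the panel that sets hepatocyte-like cells against adult hepatocytes.

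The members did not vary alike among the hepatocyte-like arrays. In replicate 3, 7 of 9 members lay above all 4 stem cell arrays, where 29.1 percent of all genes did, and 2 lay below, Saa3 and Orm2, where 36 percent of genes did. In replicate 1 the counts were 5 above and 2 below (31.4 and 30.9 percent of genes), and in replicate 2 they were 3 above and 2 below (34.5 and 31.5 percent). The median distance of the members from the stem cell mean was 0.95 in replicate 3, 0.21 in replicate 1 and 0.03 in replicate 2. Replicate 3 was the highest of the 3 arrays for 7 members (35.4 percent of all genes) and the lowest for Saa3 and Orm2. Orm2 read 4.38, 4.33 and 3.75, and its copy Orm3 read 4.38, 4.01 and 3.27. Albumin stood at 10.80 in the same replicate, and the part of such transcripts in these values was not tested. Without replicate 3, 0 members were called higher in limma and 1 lower, Saa3, where 1910 of 22180 genes were called higher and 1809 lower. At an unadjusted p under 0.05 the members were 2 higher and 1 lower, and the share of all genes was not counted there. At an adjusted p under 0.05 with no minimum difference, Lbp and Hpx were higher with all arrays.

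**Figure D3:**
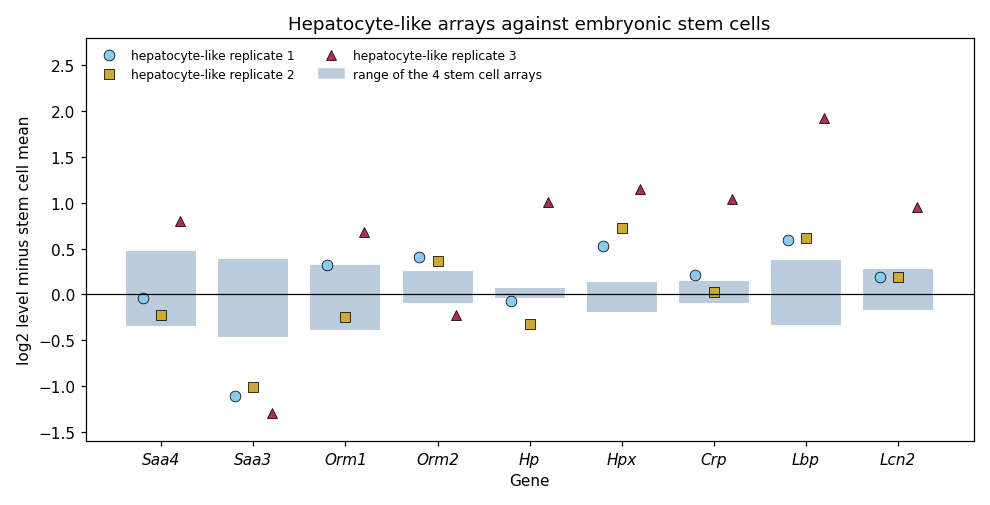
Level of each hepatocyte-like array minus the mean of the 4 stem cell arrays in log2 units (vertical axis) for the 9 measured members (horizontal axis); grey boxes span the 4 stem cell arrays. Replicate 3 (triangles) lies above the boxes for 7 members, by up to 1.92 for Lbp, and below them for Saa3 and Orm2.

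Other acute phase genes were counted from lists of the pathway. Over all genes, 11 percent were called higher and 15.6 percent lower in adult hepatocytes against stem cells. In hepatocyte-like against stem cells these shares were 8.61 and 7.35 percent. For the list counts without hepatocyte-like replicate 3, here and below, 1910 of all 22180 genes were called higher and 1809 lower. A further 30 genes were listed as rising in the acute phase, not all of them genes of plasma proteins, and 26 were measured. In adult hepatocytes 20 of the 26 rose and 3 fell against stem cells (median 6.52). The 3 were the metallothioneins Mt1 and Mt2 and the protease inhibitor A2m. In hepatocyte-like cells 5 rose and 3 fell (median 0.30), and without replicate 3 these were 5 and 1. The protease inhibitor Serpina3n read 9.35, 9.55 and 9.31 in hepatocyte-like cells, 3.90 to 4.95 in stem cells and 11.60 to 11.92 in adult hepatocytes. All 3 hepatocyte-like replicates were alike, and the rise over stem cells was 4.83 ± 0.23 (adjusted p = 1.97e-08). The iron hormone hepcidin, Hamp, read 5.44, 5.44 and 10.54 against 2.72 to 3.54 in stem cells, a rise of 3.90 ± 0.93 (adjusted p = 0.00622) that was 2.20 without replicate 3. The fibrinogen chain Fgb read 6.67, 7.99 and 6.85 against 3.72 to 4.23. Plasma proteins that fall in the acute phase were measured for 10 of 12. All 10 rose in adult hepatocytes (median 6.17), while in hepatocyte-like cells 3 rose, Ttr, Rbp4 and Apoa1, and 1 fell, Fetub (median 0.60), or 3 and 2 without replicate 3.

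Cytokines that drive the response were mostly dim. Of 15 measured ligands 12 had a mean below 5.5 in stem cells, 13 in hepatocyte-like cells and 10 in adult hepatocytes. Dim levels are common on these arrays, whose medians over all clusters were 4.91 to 5.07. Of all 22180 genes, 13247 had a mean of at least 5.5 in 1 or more of the groups. Il6 read 2.44 to 3.14 and Il1b 3.43 to 4.67 over the 10 arrays. In hepatocyte-like against stem cells Il11 and Il18 rose and Osm, the gene of oncostatin M, fell by 1.60 ± 0.24 (adjusted p = 2.38e-04). These were the only calls among the 15, where 8.61 percent of all genes were called higher and 7.35 percent lower. Il11 read 5.77, 5.01 and 4.23 and was 0.89 without replicate 1, and Il18 was 0.92 without replicate 3 and 0.97 without stem cell replicate 2, all short of the minimum. In adult hepatocytes Il18 rose by 4.03 ± 0.28 and Il1a by 1.84 ± 0.17 (adjusted p = 1.16e-07 and 1.52e-06), and Osm fell there too, by 1.39 ± 0.24 (adjusted p = 3.32e-04). No other ligand was called there, where 11 percent of all genes were called higher and 15.6 percent lower.

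Receptors of the interleukin-6 family were counted next. Of 22 measured genes of these receptors and JAK-STAT signalling 5 rose and 3 fell in hepatocyte-like against stem cells (8.61 and 7.35 percent of all genes), or 5 and 4 without replicate 3. In adult hepatocytes 9 rose and 3 fell (11 and 15.6 percent of all genes). The oncostatin receptor chain Osmr read 7.38, 7.52 and 7.22 in hepatocyte-like cells, 5.20 to 5.85 in adult hepatocytes and 4.20 to 4.53 in stem cells. It was the highest in hepatocyte-like cells, 1.87 ± 0.19 above adult hepatocytes (adjusted p = 5.18e-06). The interleukin-6 receptor Il6ra read 8.93, 9.37 and 9.04 in adult hepatocytes, 6.03, 8.18 and 7.94 in hepatocyte-like cells and 6.89 to 7.72 in stem cells. Il6ra fell by 1.73 ± 0.44 from adult hepatocytes to hepatocyte-like cells (adjusted p = 0.00763), and by 1.05 without replicate 1. Lifr, the leukaemia inhibitory factor receptor, rose by 3.11 ± 0.28 in adult hepatocytes over stem cells (adjusted p = 1.27e-06). The shared signal chain gp130, Il6st, was between 9.11 and 10.58 and Stat3 between 9.66 and 10.29 over the 10 arrays. The feedback inhibitor Socs3, a target of STAT3, read 7.84 to 8.04 in stem cells, 6.77 to 7.25 in hepatocyte-like cells and 5.99 to 6.45 in adult hepatocytes, a fall of 1.68 ± 0.17 from the first to the last (adjusted p = 3.35e-06).

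Genes of interleukin-1, tumour necrosis factor and Toll-like receptor signalling with NF-kB were measured for 30 of 33. In hepatocyte-like against stem cells 4 rose and 3 fell, shares near those over all genes (8.61 and 7.35 percent), and without replicate 3 these were 5 and 4. In adult hepatocytes against stem cells 11 rose and 4 fell (11 and 15.6 percent of all genes). The interleukin-1 receptor Il1r1 read 6.99, 8.18 and 6.17 in hepatocyte-like cells against 4.58 to 5.26 in stem cells, a rise of 2.12 ± 0.37 (adjusted p = 7.69e-04). In adult hepatocytes it rose by 3.43 ± 0.37 over stem cells (adjusted p = 5.95e-06 in limma). Il1r1 fell by 1.30 ± 0.39 in hepatocyte-like against adult hepatocytes (adjusted p = 0.0201), but by 0.83 without replicate 3 (adjusted p = 0.0794), which did not pass. Its partner chain Il1rap read 9.02, 8.19 and 8.37 in adult hepatocytes, 5.70 to 6.14 in hepatocyte-like cells and 5.12 to 5.49 in stem cells. It fell by 2.68 ± 0.22 in hepatocyte-like against adult hepatocytes (adjusted p = 7.38e-07). Nfkbiz, a cofactor of NF-kB at acute phase genes, rose to a similar level in both, at 6.66 to 6.81 in hepatocyte-like cells and 6.58 to 6.82 in adult hepatocytes against 4.81 to 5.38 in stem cells.

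Transcription factors that act on acute phase promoters rose in 14 of 21 and fell in 1 in adult hepatocytes against stem cells (median 2.16), and in hepatocyte-like cells 5 rose and 2 fell (median 0.23), or 4 and 2 without replicate 3. Over all genes 11 percent rose and 15.6 percent fell in adult hepatocytes, and 8.61 and 7.35 percent in hepatocyte-like cells. Cebpa, the C/EBP factor of resting liver, read 9.88, 10.41 and 10.60 in adult hepatocytes, 5.22, 5.39 and 5.27 in hepatocyte-like cells and 4.80 to 5.73 in stem cells. The hepatocyte-like arrays fell between the lowest and highest stem cell arrays, and adult hepatocytes were 5.05 ± 0.23 above (adjusted p = 1.29e-09). Cebpb, the factor that interleukin-6 induces, read 7.47, 7.58 and 7.73 in adult hepatocytes, 6.42, 6.13 and 7.35 in hepatocyte-like cells and 5.14 to 5.88 in stem cells. Its rise in hepatocyte-like cells was 1.15 ± 0.27 (adjusted p = 0.00545) and fell short of the minimum without replicate 3, at 0.80 (adjusted p = 0.0175). Hnf4a, a master regulator of hepatocyte genes, read 10.18, 10.65 and 10.44 in adult hepatocytes, 6.66, 7.13 and 6.12 in hepatocyte-like cells and 5.78 to 6.21 in stem cells. Hepatocyte-like replicate 3, highest for 7 members and for 35.4 percent of all genes, was the lowest of the 3 for Hnf4a. The glucocorticoid receptor Nr3c1 rose by 1.35 ± 0.24 in hepatocyte-like cells (adjusted p = 9.36e-04).

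**Figure D4:**
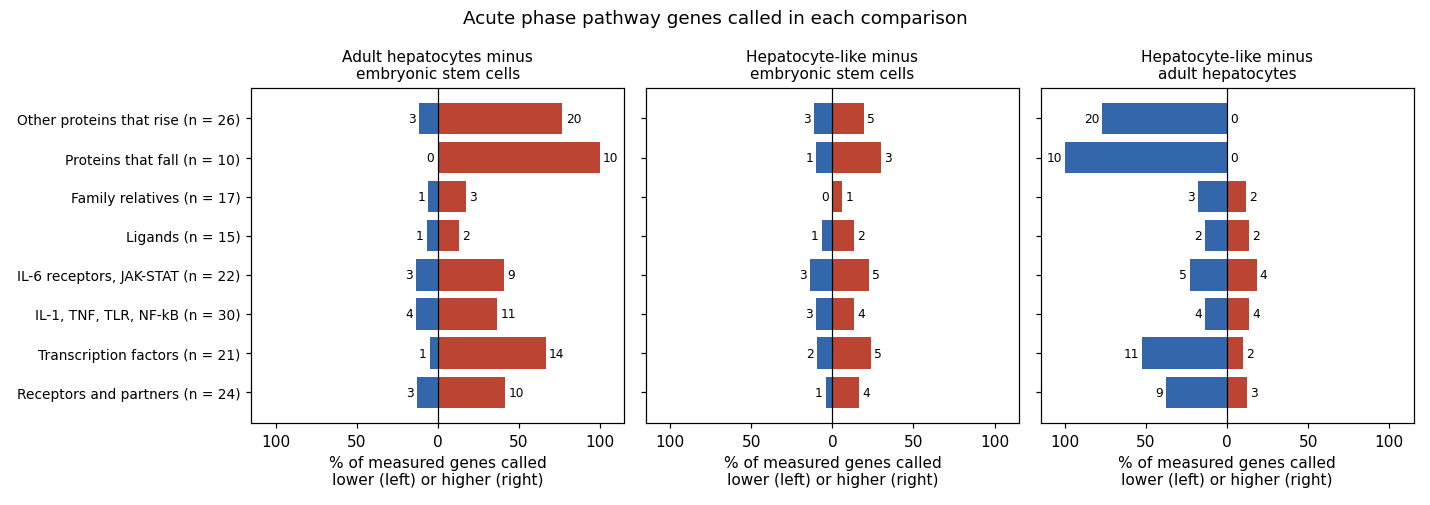
Percent of the measured genes of 8 acute phase lists (rows, number measured in brackets) that were called lower (blue, to the left) or higher (red, to the right) in each of the 3 comparisons, with the number of genes beside each bar. In adult hepatocytes against stem cells 20 of 26 genes listed as rising in the acute phase were higher. So were 10 of 10 listed as falling and 14 of 21 transcription factors. In hepatocyte-like against stem cells no list had more than 5 higher. Over all genes, 11 and 8.61 percent were higher in these comparisons in turn.

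Patterns over the 10 arrays fell into one shared by most members and that of Saa3. Pearson's r between Saa4, Orm1, Orm2, Hp, Hpx and Crp was 0.982 or more for each pair, 0.963 or more of these with Lbp, and 0.932 to 0.959 of Lcn2 with those 7. Saa3 correlated with the other 8 at 0.46 to 0.64. These values describe 10 arrays in 3 kinds of cells, so they reflect mainly the distance of adult hepatocytes. Among all named genes the most similar to Saa4 was Pon1, the paraoxonase of high density lipoprotein (r = 0.999), the most similar to Hp was plasminogen, Plg (0.999). The most similar to Lbp was Car3, a carbonic anhydrase (0.997). Those nearest to Saa3 were Rhbg, an ammonium transporter at a mean of 8.69 in adult hepatocytes, 5.04 in hepatocyte-like cells and 7.22 in stem cells (r = 0.979), and Dop1b (0.971). The nearest to Lcn2 was Ropn1l (0.990).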

How the data were processed

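Levels were the log2 values that the authors deposited, 1 table of 41345 transcript clusters on 10 arrays, used as given. Transcriptome Analysis Console, RMA, R 3.3.1 and oligo 1.38.0 are listed per the submitters' processing notes, without their roles. Not given in the sources used here are the genome build and the summarisation level. The log2 scale was taken from the range of values, 1.27 to 13.58, with array medians of 4.91 to 5.07. Background could not be tested per probe.

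Clusters with 1 symbol in the platform annotation (23521, against 1814 with several and 16010 with none) were kept, with the highest mean over the 10 arrays per gene, which gave 22180 genes. Of the 23521 clusters with 1 symbol, 23328 had an Entrez identifier in RefSeq GRCm38.p6, and 0 symbols differed. Group means over all arrays were fitted together in R 4.3.3 by limma 3.58.1 (lmFit, then eBayes, tests 2-sided), with Benjamini-Hochberg adjustment over all genes. SEs come from this fit, and ± after a difference is its SE. The scripts were tested on simulated data. Figures used matplotlib 3.10.9.

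The members and lists were chosen with earlier results of these data known. Named were all members, up to 5 called genes per list and comparison, those with a role beside a result, Alb, Afp and Nanog, and the genes most similar to a member. Alternatives were other normalizations, a dim filter, cluster averages or all clusters, other variance models, array weights, 2 groups only, a replicate block, single arrays left out and other thresholds. The counts of the lists without hepatocyte-like replicate 3 and the members' median without each hepatocyte-like array were added after the data were seen.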

Additional observations from a re-analysis of the deposited data

Results flagged for a closer look

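In embryonic stem cells Orm2 in replicate 1, at 4.22, lay far from replicates 2, 3 and 4, at 3.87, 3.87 and 3.92. The gap to the next array was 0.874 of the whole range, above the critical value of Dixon's test for 4 arrays at 95 percent. This was 1 of 9 groups of 4 arrays examined, and chance flags about 1 in 20. All 4 levels were dim.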

How the results depend on the processing

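The counts of members called in adult hepatocytes against stem cells (8 higher, 0 lower) and from adult hepatocytes to hepatocyte-like cells (9 lower, 0 higher) were the same under all alternatives run. In hepatocyte-like against stem cells 1 member was lower under all of them, and the count of higher members, 1, was 0 with quantile normalization again, with arrays centred on their medians, with array weights and at an adjusted p under 0.01, 2 with no minimum difference, and 0 to 1 with single arrays left out. The differences of Saa4 and Hp there, which were not called, ranged from -0.13 to 0.38 and from -0.20 to 0.47 with single arrays left out, both lowest without hepatocyte-like replicate 3. With no minimum difference, 3221 genes were higher and 3169 lower in hepatocyte-like against stem cells, 4058 were higher in adult hepatocytes, and 4762 were higher and 3241 lower in hepatocyte-like cells against adult hepatocytes. Same-numbered replicates did not deviate together (r of deviations -0.185 to 0.137), and with the replicate block, which assumes that they pair, the members called were 1 higher and 1 lower, 8 higher, and 9 lower in the 3 comparisons. At dim levels, which hold 8 of the 9 member means in stem cells, no background was measured, so low transcripts cannot be told from none.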

Other observations

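Adult hepatocyte replicate 1 was the highest of its group for 6 of the 9 members, where 38.6 percent of all genes were highest there. Beside Lcn2 at 8.80 against 7.45 and 7.40, it was also highest for the Saa2 cluster at 7.32 against 6.24 and 6.92 and for Apcs at 10.24 against 9.62 and 9.72. The endotoxin co-receptor Ly96 stood at 8.49 there against 7.30 and 7.34, the interleukin-1 receptor chain Il1rap at 9.02 against 8.19 and 8.37, and Il18 at 8.07 against 6.75 and 7.14. Saa3 was lowest in the same replicate, at 6.49 against 7.06 and 6.67. Socs3 was at 6.41, 5.99 and 6.45, and Cebpa at 9.88, 10.41 and 10.60. These genes were picked out after their values were seen, and no test was made within the 3 adult arrays.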
